A study of Mus musculus with 8 samples.

Results

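The 9 genes described here encode 7 protein arginine methyltransferases (Prmt1, Prmt2, Prmt3, Carm1, Prmt5, Prmt6 and Prmt7) and the Prmt5 partners Wdr77 and Clns1a. They were taken by symbol from a table of read counts with 52636 gene identifiers, 26966 of them with a symbol, and each of the 9 symbols had 1 identifier. They were selected on their counts in the ZP3 Trim-away and buffer libraries, with the comparison below already known, so their differences between the groups are a description. No p of a member is given. Where members passed the threshold of the fit over all genes, they are counted and named, with the settings that kept the call, as a description only.

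The RNA came from B6C3F1 x CD1 embryos of wild-type genotype, mated in vivo, collected as zygotes and cultured, and each library is of pooled embryos. In the ZP3 Trim-away group (3 libraries), zygotes had received an anti-ZP3 antibody with mCherry-Trim21 mRNA and Oregon Green dextran beads. The Trim21 overexpression group (4 libraries, called the buffer group) had received the same mRNA and beads with antibody buffer in place of the antibody, and 1 library is of non-manipulated, untreated embryos. The study's text gives the sizes of the injected groups the other way round, and the groups here are those of the sample labels. Trim21 is an antibody receptor that sends antibody-bound protein to the proteasome, so it is the ZP3 protein, a component of the egg coat, that the treatment targets. RNA was extracted on the day after injection, when the buffer embryos were at the 2-cell stage and the Trim-away embryos were arrested at the 1-cell stage. The treatment and the stage therefore cannot be told apart in any comparison of these groups. Nor can fewer cells or less RNA per embryo be told apart from a lower level per cell, since CPM (counts scaled to a common library size) are relative to each library.

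Arginine methyltransferases move methyl groups from S-adenosylmethionine onto arginine side chains of histones, RNA-binding proteins and signalling proteins. Prmt1 is the main enzyme of asymmetric dimethylation and Prmt5 that of symmetric dimethylation, and mouse embryos that lack either gene die early. Prmt5 works in a complex with the WD-repeat protein Wdr77 (also called MEP50). In the methylosome this complex is joined by pICln, the product of Clns1a, which brings it the Sm proteins, and the methylated Sm proteins are then loaded onto spliceosomal snRNAs by the SMN complex.

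The libraries labelled ZP3 Trim-away did not look alike in the injected mRNA. Trim21 reached 2071, 0 and 3.61 CPM in Trim-away replicates 1 to 3, against 2425, 2752, 8689 and 937 CPM in buffer replicates 1 to 4 and 0 CPM in the non-manipulated library. Replicates 2 and 3 thus held almost no Trim21 reads although their labels state the injection, and results are given below with and without replicate 1. Total counts lay between 13228428 and 15379933 in the Trim-away libraries, between 17615416 and 22427747 in the buffer libraries, and at 22248022 in the non-manipulated library. The 8 oocyte markers summed to 3070.2 to 6078 CPM in the Trim-away libraries, against 1603 to 2255 CPM in the buffer libraries, and Zp2, Bmp15 and Nlrp5 rose by the test described below. Zp3, also among the 8, was lower, at 27.6 to 56.9 CPM in the Trim-away libraries and 105 to 143 CPM in the buffer libraries. Its log2 fold change was -1.36, and it did not pass the test. The 8 markers of the 2-cell embryo, the Zscan4, Tcstv and Usp17l genes, summed to 739 to 989 CPM in the Trim-away libraries, against 267 to 661 CPM in the buffer libraries, and 0 of 8 passed. Cumulus cell markers summed to 7.62 to 49.0 CPM in the Trim-away libraries, against 1.18 to 21.0 CPM in the buffer libraries, and 5 of the 8 (Ptx3, Amh, Foxl2, Fshr and Inha) were at 0 in each library. Sperm markers summed to 96.6 to 186 CPM in the Trim-away libraries, against 0.472 to 57.0 CPM in the buffer libraries, with Tnp1 and Tnp2 at 0 throughout. Oviduct markers summed to 40.7 to 260.0 CPM in the Trim-away libraries, against 306 to 372 CPM in the buffer libraries. Blood markers summed to 2.01 to 35.0 CPM in the Trim-away libraries, against 8.91 to 15.7 CPM in the buffer libraries. The part of these marker levels in the differences below was not tested.

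The regions just upstream of the 4 genes that the results turn on are shown first: they are the 4 most abundant members in buffer embryos and include the 3 whose groups did not overlap. These are RefSeq windows on GRCm38.p6 of 300 bases, from 250 before to 50 after the annotated start, read 5′ to 3′ on the strand of the gene. Capitals mark the CCAAT box (CCAAT), the E-box (CACGTG) and a palindromic CG element (CTCGCGAG), each searched on both strands, so that a CCAAT box on the other strand appears as its reverse complement.
Prmt5, chr14:54517421-54517720, minus strand: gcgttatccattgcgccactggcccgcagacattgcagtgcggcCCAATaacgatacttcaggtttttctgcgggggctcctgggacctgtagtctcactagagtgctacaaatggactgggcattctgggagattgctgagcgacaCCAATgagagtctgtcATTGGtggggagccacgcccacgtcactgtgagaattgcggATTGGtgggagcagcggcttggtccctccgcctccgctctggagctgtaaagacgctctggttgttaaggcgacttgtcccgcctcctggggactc
Wdr77, chr3:105959248-105959547, plus strand: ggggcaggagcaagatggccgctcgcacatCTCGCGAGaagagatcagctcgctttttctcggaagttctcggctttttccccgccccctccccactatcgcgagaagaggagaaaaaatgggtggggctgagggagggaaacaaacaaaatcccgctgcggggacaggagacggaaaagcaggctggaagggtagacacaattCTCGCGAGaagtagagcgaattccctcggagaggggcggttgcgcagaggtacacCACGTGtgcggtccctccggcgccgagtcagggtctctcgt
Clns1a, chr7:97696407-97696706, plus strand: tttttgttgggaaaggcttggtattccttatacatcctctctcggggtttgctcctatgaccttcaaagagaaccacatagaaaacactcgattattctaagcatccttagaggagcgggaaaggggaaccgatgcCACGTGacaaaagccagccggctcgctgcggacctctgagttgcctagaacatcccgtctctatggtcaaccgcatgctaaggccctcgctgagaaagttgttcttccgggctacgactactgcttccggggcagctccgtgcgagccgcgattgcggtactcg
Prmt1, chr7:44986371-44986670, minus strand: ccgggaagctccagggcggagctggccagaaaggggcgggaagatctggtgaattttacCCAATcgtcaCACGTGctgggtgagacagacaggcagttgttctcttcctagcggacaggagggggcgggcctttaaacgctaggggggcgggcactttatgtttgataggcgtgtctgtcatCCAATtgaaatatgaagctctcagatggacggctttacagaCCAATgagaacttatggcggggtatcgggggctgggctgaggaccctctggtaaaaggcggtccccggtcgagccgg

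The Prmt5 window held 4 CCAAT boxes and the Prmt1 window 3, while at least 3 were found in 3.37% of the 32851 windows of the same length. The Wdr77 window held the 8-base palindromic element at 2 places, 220 and 46 bases before the start, and 0.919% of all windows held at least 1. An E-box was found in the windows of Prmt1, Prmt3, Wdr77 and Clns1a, 4 of the 8 members with a window, against 7.15% of all windows. A CCAAT box was found in 4 of the 8 members' windows (Prmt1, Prmt2, Prmt3 and Prmt5), against 37.4% of all windows. The GC box (GGGCGG) was in 5 of the 8 windows, against 35.7% of all windows, and the Ets core (CCGGAAG) in 3, against 8.86% of all windows. Neither was put in capitals. The GC content was 53.3% to 59.7% in the 4 windows printed and up to 69.7% (Prmt7) in the other members' windows. Each of the 8 windows lay above the median of 52.7% over all windows, and the motif shares were not matched for GC content. Carm1 had no window in the table.

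The Prmt5 partners were the members with the clearest separation of the groups. Wdr77 (chr3:105959369-105970037, plus strand, GRCm38, GENCODE M21) reached 19.2, 47.3 and 30.2 CPM in the Trim-away libraries, against 197, 155, 194 and 154 CPM in the buffer libraries. The highest Trim-away library lay far below the lowest buffer library, and the non-manipulated library, at 169 CPM, lay within the buffer range. The means were 32.2 ± 14.2 CPM (SD, n = 3) in Trim-away embryos and 175 ± 24.0 CPM (SD, n = 4) in buffer embryos, a log2 fold change of -2.44 (SE 0.38) by edgeR's quasi-likelihood fit over 13641 genes. The log2 fold change was -2.19 without Trim-away replicate 1, and ranged from -2.81 to -2.19 when any 1 library was left out. The exons of Wdr77 share 1389 bases with Gm42890 on the same strand and 337 bases with Atp5f1 on the other strand, so its count may be incomplete or mixed, and whether strand was used in the counting was not stated.

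Clns1a (chr7:97696634-97720796, plus strand) was likewise lower in each Trim-away library. It reached 59.4, 111 and 99.0 CPM in the Trim-away libraries, against 214, 296, 207 and 285 CPM in the buffer libraries and 338 CPM in the non-manipulated library. The groups did not overlap, and the non-manipulated library lay above the buffer range. The means were 89.9 ± 27.2 CPM (SD, n = 3) in Trim-away embryos and 250 ± 46.2 CPM (SD, n = 4) in buffer embryos, a log2 fold change of -1.48 (SE 0.30). It was -1.27 without Trim-away replicate 1. Clns1a shares 121 exon bases with the antisense gene Rsf1os2.

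Prmt5 itself (chr14:54507187-54517525, minus strand) did not separate the groups. It reached 27.2, 103 and 74.0 CPM in the Trim-away libraries, against 162, 135, 175 and 66.4 CPM in the buffer libraries and 168 CPM in the non-manipulated library. Buffer replicate 4 lay below Trim-away replicates 2 and 3, and the other 3 buffer libraries lay above all 3 Trim-away libraries. The means were 68.1 ± 38.3 CPM (SD, n = 3) in Trim-away embryos and 134 ± 48.3 CPM (SD, n = 4) in buffer embryos, with a log2 fold change of -0.98 (SE 0.50) that was -0.62 without Trim-away replicate 1.

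The balance between Prmt5 and its partners was compared within each library, where the scaling of the library has no part. Per kilobase of exon, Wdr77 transcripts stood at 0.576, 0.375 and 0.334 of Prmt5 in the Trim-away libraries, against 0.999, 0.939, 0.908 and 1.89 in the buffer libraries and 0.821 in the non-manipulated library. Each Trim-away library was below each of the other 5 libraries. Clns1a over Prmt5 overlapped between the groups, at 2.24, 1.11 and 1.37 in the Trim-away libraries, against 1.36, 2.25, 1.22 and 4.40 in the buffer libraries. Riok1, a kinase known from human cells to bind Prmt5 in place of pICln and to bring it nucleolin, stood at 5.85, 1.27 and 1.36 of Clns1a in the Trim-away libraries, against 0.0827, 0.125, 0.288 and 0.201 in the buffer libraries and 0.159 in the non-manipulated library. By this length, Riok1 transcripts were thus the more abundant of the pair in each Trim-away library and the less abundant in each other library. No other length was tried for the ratios. Which of the pair is the more abundant depends on the length, while the separation of the groups does not. These are levels of RNA, and the proteins were not measured here.

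**Figure D1:**
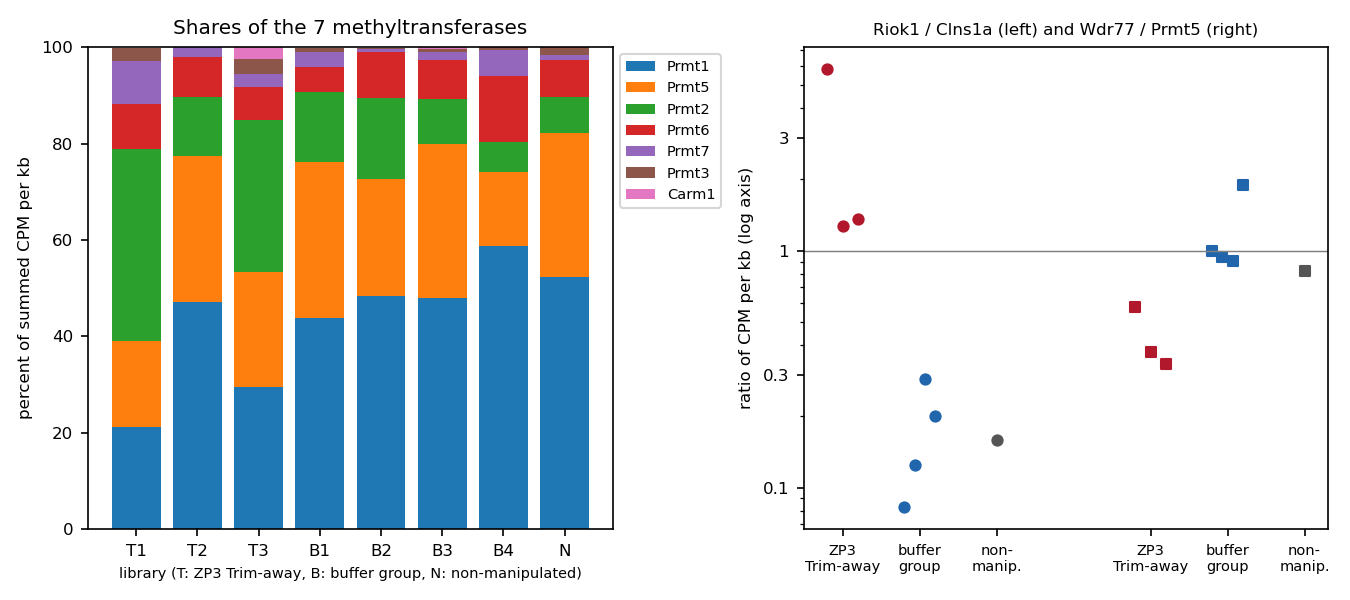
Left, percent of the summed CPM per kilobase of exon of the 7 methyltransferases held by each, in Trim-away replicates 1 to 3 (T1 to T3), buffer replicates 1 to 4 (B1 to B4) and the non-manipulated library (N); right, the ratios Riok1 over Clns1a and Wdr77 over Prmt5 in CPM per kilobase on a log axis, with 1 point per library. Riok1 over Clns1a lies at 1.27 or more in Trim-away embryos and at 0.288 or less in buffer embryos, and Wdr77 over Prmt5 at 0.576 or less in Trim-away embryos and at 0.908 or more in buffer embryos.

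Among the asymmetric enzymes, Prmt1 (chr7:44975989-44986568, minus strand) was lower in each Trim-away library. It reached 27.7, 139 and 79.0 CPM in the Trim-away libraries, against 189, 230.2, 227 and 219 CPM in the buffer libraries and 255 CPM in the non-manipulated library. The groups did not overlap, but the Trim-away libraries spread widely, and replicate 1 had the lowest level. The means were 82.1 ± 55.9 CPM (SD, n = 3) in Trim-away embryos and 216 ± 18.6 CPM (SD, n = 4) in buffer embryos, a log2 fold change of -1.41 (SE 0.47). It was -1.0 without Trim-away replicate 1, the lowest of the group, and -2.01 without Trim-away replicate 2, the highest.

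Prmt6 (chr3:110246109-110250998, minus strand), which methylates histone H3 and marks it asymmetrically, showed a smaller difference. It reached 15.1, 30.4 and 22.5 CPM in the Trim-away libraries, against 27.2, 56.7, 47.7 and 63.9 CPM in the buffer libraries and 46.5 CPM in the non-manipulated library. Buffer replicate 1 lay below Trim-away replicate 2, so the groups overlapped, and the log2 fold change was -1.11 (SE 0.52). Prmt6 shares 984 exon bases with the antisense gene C130013H08Rik.

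Prmt2 (chr10:76207222-76237865, minus strand), a weak methyltransferase known as a coactivator of nuclear receptors, had no such difference. It reached 51.8, 35.6 and 83.3 CPM in the Trim-away libraries, against 62.4, 78.7, 43.6 and 22.7 CPM in the buffer libraries and 35.5 CPM in the non-manipulated library. The ranges overlapped over most of their length, and the log2 fold change was 0.14 (SE 0.51).

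Prmt7 (chr8:106210936-106252794, plus strand), which leaves arginine monomethylated, was a low transcript. It reached 20.9, 10.7 and 12.7 CPM in the Trim-away libraries, against 24.7, 4.95, 12.6 and 34.9 CPM in the buffer libraries and 8.78 CPM in the non-manipulated library. The Trim-away libraries lay inside the buffer range, and the log2 fold change was -0.39 (SE 0.85). Prmt7 shares 247 exon bases with the antisense gene Smpd3.

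Prmt3 and Carm1 had the lowest mean levels per kilobase of the members in both injected groups. Prmt3 (chr7:49778346-49858265, plus strand), the cytosolic enzyme that methylates ribosomal protein Rps2, had 74, 4 and 227 counts in the Trim-away libraries, against 148, 46, 126 and 73 counts in the buffer libraries and 300 counts in the non-manipulated library. This is 6.20, 0.260 and 14.9 CPM in the Trim-away libraries, against 6.93, 2.17, 5.32 and 4.39 CPM in the buffer libraries, with a log2 fold change of 0.59 (SE 1.37). The sign was not stable: the log2 fold change was -0.53 when Trim-away replicate 3 was left out, 1.18 when replicate 2 was left out, and -0.58 by limma-voom. Carm1 (chr9:21546894-21592623, plus strand), a coactivator that methylates histone H3, had 2, 0 and 138 counts in the Trim-away libraries, against 2, 2, 75 and 0 counts in the buffer libraries and 8 counts in the non-manipulated library. Most of its reads came from 1 library of each group, and it was the 1 member that did not pass the filter on low counts. Carm1 shares 1025 exon bases with the antisense gene Yipf2.

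**Figure D2:**
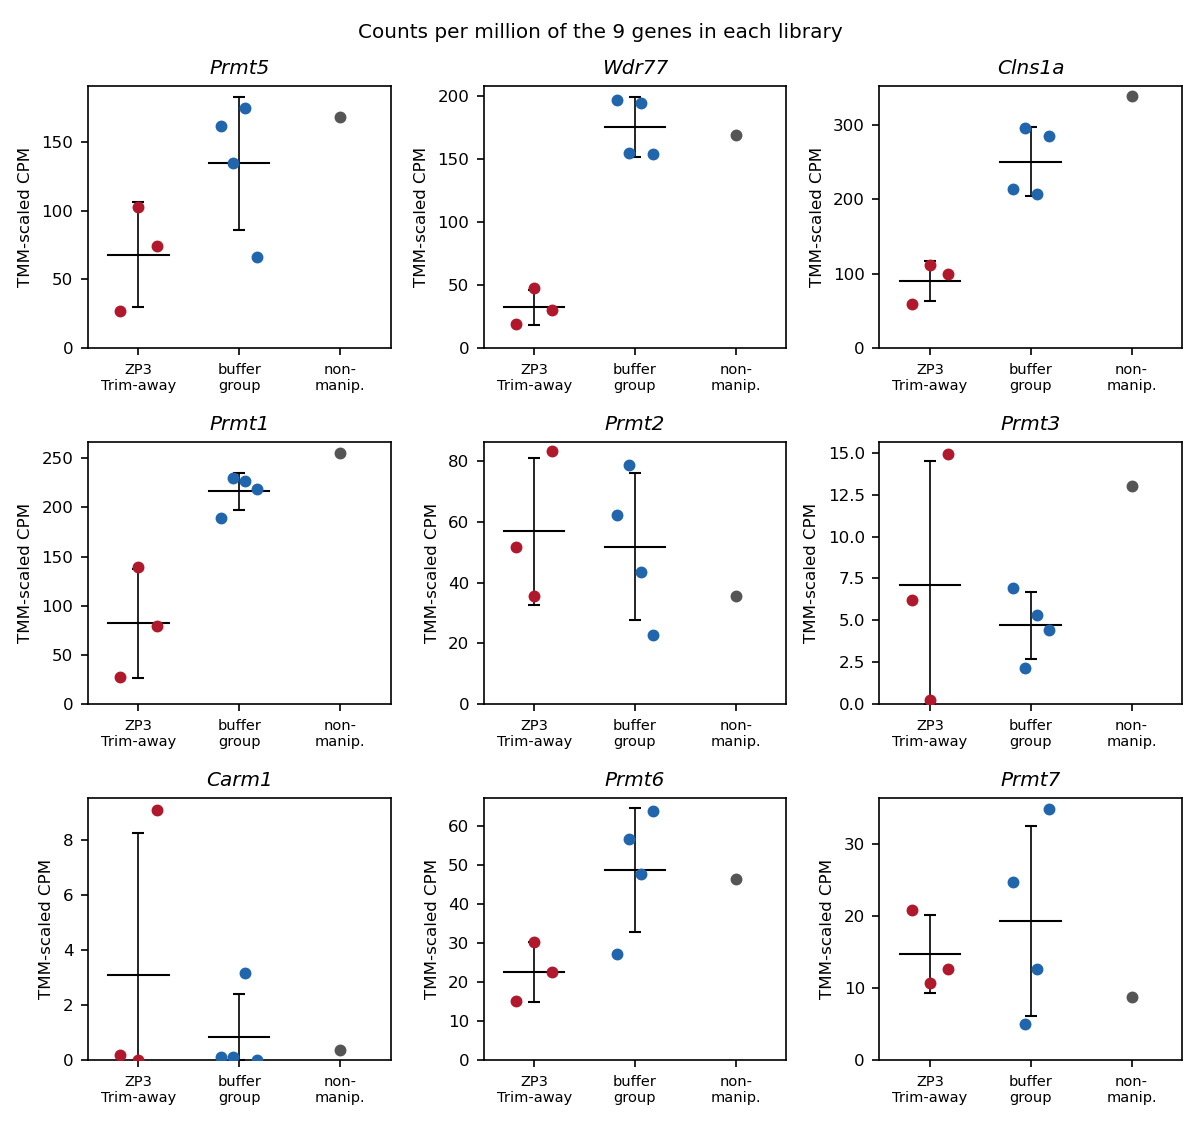
TMM-scaled CPM of each of the 9 genes (vertical axes start at 0), with 1 point per library for ZP3 Trim-away (n = 3), the buffer group (n = 4) and the non-manipulated library; bars are the mean with the SD, cut off at 0. The groups are apart for Wdr77, Clns1a and Prmt1, while Prmt2, Prmt3, Carm1, Prmt5, Prmt6 and Prmt7 overlap.

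Of the 8 members that passed the filter, 2 (Wdr77 and Clns1a) were called lower at an adjusted p under 0.05 from edgeR with Benjamini-Hochberg adjustment, beside 3.91% of all 13641 tested genes, and 0 were called higher, beside 2.98% of all tested genes. The groups did not overlap for 3 members (Prmt1, Wdr77 and Clns1a), each lower in Trim-away embryos, beside 15.4% of all tested genes, and for 0 members in the other direction, beside 13.1%. Nothing is read from these shares, since the members were chosen with this comparison known. The median log2 fold change of the 8 was -1.05, and that of all tested genes -0.04. Wdr77 was called whichever of the 7 injected libraries was left out. Clns1a was called in 3 of these 7 settings and did not pass when Trim-away replicate 2, Trim-away replicate 3, buffer replicate 2 or buffer replicate 4 was removed, at log2 fold changes between -1.65 and -1.39. These settings repeat the comparison on which the members were chosen, so a call that held is no support.

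The replicate with Trim21 reads was also compared on its own. With Trim-away replicate 1 alone against the 4 buffer libraries, the log2 fold change was -3.18 for Wdr77, -2.96 for Prmt1, -2.29 for Prmt5, -2.07 for Clns1a and -1.69 for Prmt6. It was 0.01 for Prmt2, 0.12 for Prmt7 and 0.41 for Prmt3. The median over the genes tested with all libraries was -0.54 in this fit, so these values are to be read relative to that shift, and a single library has no spread of its own. Beyond that shift, Clns1a and Prmt6 differed by about as much as with all 3 Trim-away libraries.

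**Figure D3:**
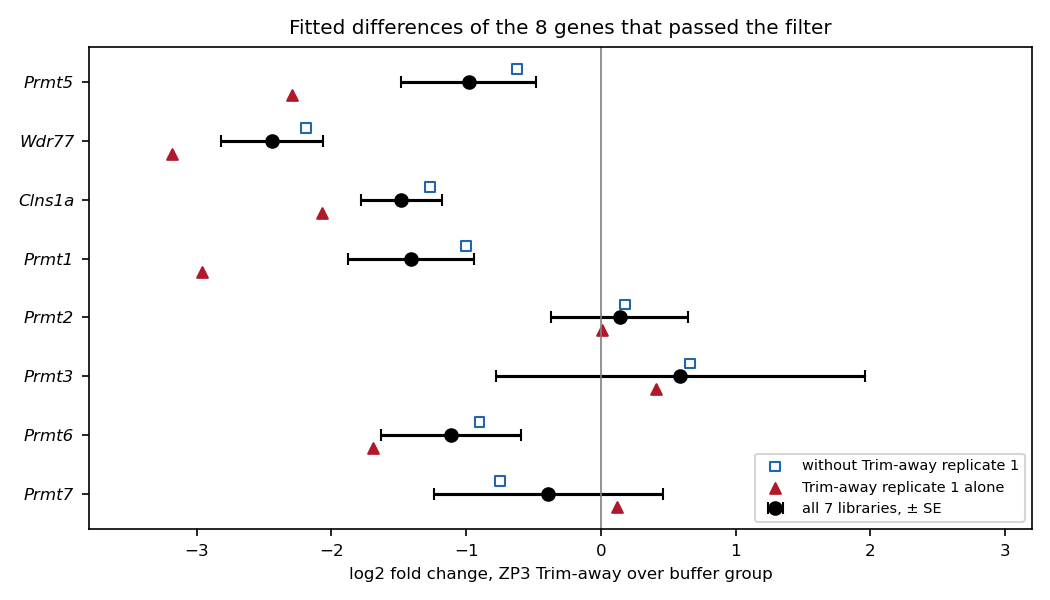
Log2 fold change of ZP3 Trim-away over the buffer group for the 8 members that passed the filter, with all 7 injected libraries (circles, ± SE), without Trim-away replicate 1 (open squares) and with Trim-away replicate 1 alone (triangles). Wdr77 lies at -2.44, -2.19 and -3.18, and Prmt2 at 0.14, 0.18 and 0.01.

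Levels were then compared between the genes, as CPM per kilobase of summed exon. In buffer embryos the order of the mean levels was Clns1a (64.9 CPM per kilobase), Prmt1 (63.2), Wdr77 (36.2), Prmt5 (34.0), Prmt2 (15.3), Prmt6 (11.6), Prmt7 (3.15), Prmt3 (0.784) and Carm1 (0.173). Among neighbours in that order, the ranges were apart only between Prmt1 and Wdr77 and between Prmt6 and Prmt7. In Trim-away embryos the order was Prmt1 (24.0 CPM per kilobase), Clns1a (23.3), Prmt5 (17.2), Prmt2 (16.8), Wdr77 (6.66), Prmt6 (5.40), Prmt7 (2.41), Prmt3 (1.19) and Carm1 (0.634). Here the ranges were apart only between Prmt2 and Wdr77 and between Prmt6 and Prmt7. Wdr77 thus stood above Prmt2 in buffer embryos and below it in each Trim-away library.

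The 7 methyltransferases together summed to 38.4, 86.3 and 78.2 CPM per kilobase in the Trim-away libraries, against 126, 139, 138 and 109 CPM per kilobase in the buffer libraries and 142 CPM per kilobase in the non-manipulated library. Prmt1 held 21.1%, 47.2% and 29.5% of this sum in the Trim-away libraries, against 43.8%, 48.3%, 47.9% and 58.7% in the buffer libraries. Trim-away replicate 2 resembled the buffer libraries in this share, so the groups overlapped. Prmt2 held 39.9%, 12.2% and 31.5% in the Trim-away libraries, against 14.6%, 16.7%, 9.33% and 6.15% in the buffer libraries. By summed exon length it had the largest share in Trim-away replicates 1 and 3, and in replicate 2 it stood behind Prmt1 and Prmt5. In replicate 3 Prmt1 was close behind, and their order there depends on the length used. Prmt5 held 17.9%, 30.2% and 23.9% in the Trim-away libraries, against 32.3%, 24.4%, 32.0% and 15.4% in the buffer libraries, which overlap.

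The transcripts with a pattern most like the members' were sought among 7212 genes, by the root mean square difference of log2 CPM over the 8 libraries after each gene was centred on its own mean. The closest to Clns1a were Platr25 (0.10), Clpx (0.17) and Gtf2h5 (0.21), where the median gene differed by 1.24. The closest to Prmt1 were Prdx5 (0.13), Mrps21 (0.20) and Ddx39 (0.22), where the median was 1.37. The closest to Wdr77 were Znrf3 (0.17), Rps15 (0.20) and Polr2l (0.21), where the median was 1.56. Among the members themselves, Clns1a differed by 0.39 from Prmt1, 0.38 from Prmt6, 0.56 from Wdr77 and 0.62 from Prmt5, against 1.16 from Prmt2, 1.30 from Prmt7 and 1.71 from Prmt3. By closeness to Clns1a among the 7212 genes, Prmt1 ranked only 217, Prmt6 190, Wdr77 748 and Prmt5 927. The difference between the groups, on which the members were chosen, also enters this measure.

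Other genes of arginine methylation were followed in 5 lists with 81 genes, of which 67 passed the filter. Of these, 4 rose and 5 fell in Trim-away embryos, and 58 did not pass the test, beside the shares of all genes given above. The lists too were chosen with earlier results of these data known. Their shares, medians and adjusted p are therefore descriptions and no independent support.

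Among 16 further methyltransferases, regulators of Prmt1 and Prmt5 and enzymes of methylarginine turnover, 9 passed the filter and Riok1 rose. It reached 852, 346 and 330.2 CPM in the Trim-away libraries, against 43.4, 90.8, 147 and 140.2 CPM in the buffer libraries and 132 CPM in the non-manipulated library. Each Trim-away library lay above each other library, with a log2 fold change of 2.29 ± 0.50 (SE) with an adjusted p of 0.0300 by edgeR. Without Trim-away replicate 1 the log2 fold change was 1.66. The call held without Trim-away replicate 3 and was lost without each other injected library, with an adjusted p of up to 0.0863, and over all alternatives the adjusted p ran between 8.98e-05 and 0.189. Copr5, the other adaptor of Prmt5 known from human cells (listed as Coprs), was low, at 3.43, 0 and 1.77 CPM in the Trim-away libraries, against 0.0936, 14.7, 2.70 and 9.09 CPM in the buffer libraries. The Prmt1-binding antiproliferative proteins Btg1 and Btg2 did not pass the test. Btg1 reached 2.26, 39.7 and 41.0 CPM in the Trim-away libraries, against 103, 81.9, 77.8 and 114 CPM in the buffer libraries. Btg2 reached 63.4, 89.0 and 96.1 CPM in the Trim-away libraries, against 52.2, 24.0, 27.2 and 35.5 CPM in the buffer libraries, and the groups did not overlap for either gene, with Btg1 lower and Btg2 higher in Trim-away embryos. Of the 9 tested genes of this list, 3 were lower without overlap and 2 higher, beside 15.4% and 13.1% of all tested genes. Prmt8 had no count in the 7 injected libraries, and Prmt9 reached 0, 0 and 13.4 CPM in the Trim-away libraries, against 0, 3.11, 0 and 1.20 CPM in the buffer libraries.

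Among the 19 Sm proteins and members of the SMN complex, 18 passed the filter, with a median log2 fold change of -0.81. Snrpd3 and Snrpd1, which encode Sm proteins that Prmt5 methylates, fell, and 0 rose. Snrpb and Snrpn, also of this list, overlapped between the groups and did not pass, at log2 fold changes of -0.91 and 0.07. Snrpd3 reached 119, 105 and 110.2 CPM in the Trim-away libraries, against 263, 242, 263 and 306 CPM in the buffer libraries, a log2 fold change of -1.27 ± 0.23 (SE) with an adjusted p of 0.0149 by edgeR. Snrpd1 reached 183, 137 and 171 CPM in the Trim-away libraries, against 383, 339, 313 and 586 CPM in the buffer libraries, a log2 fold change of -1.31 ± 0.29 (SE) with an adjusted p of 0.0329 by edgeR. For both genes the 3 Trim-away libraries lay close together, with or without Trim21 reads. Genes for Sm, hnRNP and ribosomal proteins have processed copies elsewhere in the genome that can share their reads, which makes their levels uncertain. Snrpd3 lost its call without Trim-away replicate 2 or 3, with an adjusted p of up to 0.0618, and Snrpd1 kept its call only without buffer replicate 3, with an adjusted p of up to 0.109 otherwise. Over all alternatives the adjusted p ran between 8.61e-06 and 0.158 for Snrpd3 and between 0.00147 and 0.208 for Snrpd1. The groups did not overlap for 7 of the 18, each lower in Trim-away embryos, beside 15.4% of all tested genes in that direction: Snrpd1, Snrpd2, Snrpd3, Snrpe, Snrpf, Snrpg and Gemin2. The SMN gene Smn1 did not differ beyond its spread, at 147, 116 and 107 CPM in the Trim-away libraries, against 137, 78.8, 140.2 and 68.2 CPM in the buffer libraries.

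Tudor domain proteins bind methylated arginine, and 9 of 11 passed the filter, with a median log2 fold change of 1.19. Tdrd3, a reader of asymmetric dimethylarginine, and Tdrd12, a factor of the piRNA pathway, rose, and 0 fell. Tdrd3 reached 328, 203 and 195 CPM in the Trim-away libraries, against 53.0, 106, 46.2 and 71.6 CPM in the buffer libraries, a log2 fold change of 1.81 ± 0.37 (SE) with an adjusted p of 0.0242 by edgeR. Tdrd12 reached 171, 35.4 and 49.6 CPM in the Trim-away libraries, against 10.8, 8.68, 13.1 and 21.0 CPM in the buffer libraries, a log2 fold change of 2.69 ± 0.66 (SE) with an adjusted p of 0.0438 by edgeR. The log2 fold change was 1.64 without Trim-away replicate 1. For both genes the non-manipulated library, at 76.6 and 8.70 CPM, lay within the buffer range and below each Trim-away library. Tdrd3 kept its call only without Trim-away replicate 3 or buffer replicate 2, with an adjusted p of up to 0.0650 otherwise, and Tdrd12 only without Trim-away replicate 2, with an adjusted p of up to 0.222 otherwise. Over all alternatives the adjusted p ran between 0.000193 and 0.154 for Tdrd3 and between 0.000720 and 0.222 for Tdrd12.

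Of 24 proteins known to carry methylated arginine, 22 passed the filter, 20 of them with a negative log2 fold change, beside 51.0% of all tested genes, and the median was -0.88, beside -0.04 over all tested genes. Hnrnpa2b1 and Hnrnpk, nuclear RNA-binding proteins known as substrates of Prmt1, fell, and 0 rose. Hnrnpa2b1 reached 99.8, 124 and 119 CPM in the Trim-away libraries, against 269, 312, 327 and 337 CPM in the buffer libraries, a log2 fold change of -1.45 ± 0.23 (SE) with an adjusted p of 0.00982 by edgeR. The call held whichever library was left out. Hnrnpk reached 300.1, 312 and 332 CPM in the Trim-away libraries, against 671, 660.3, 529 and 652 CPM in the buffer libraries, a log2 fold change of -1.0 ± 0.20 (SE) with an adjusted p of 0.0216 by edgeR. Hnrnpk kept its call only without Trim-away replicate 1 or buffer replicate 3, with an adjusted p of up to 0.0816 otherwise. Over the alternatives the adjusted p ran between 6.84e-09 and 0.123 for Hnrnpa2b1 and between 8.82e-05 and 0.186 for Hnrnpk. Nucleolin (Ncl), which Riok1 brings to Prmt5 in human cells, overlapped between the groups, at 379, 532 and 475 CPM in the Trim-away libraries, against 611, 382, 606 and 586 CPM in the buffer libraries.

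Of 11 genes of methyl donor supply, 9 passed the filter, and the genes of the S-adenosylmethionine synthetases moved in opposite directions. Mat2a, the form of most tissues, reached 17.3, 43.3 and 69.1 CPM in the Trim-away libraries, against 258, 271, 296 and 214 CPM in the buffer libraries and 292 CPM in the non-manipulated library. It fell by 2.60 on the log2 scale (SE 0.45, adjusted p = 0.0129 from edgeR), and of the 7 settings with 1 library left out the call was lost only without Trim-away replicate 2, with an adjusted p of 0.0570 (1.31e-07 to 0.101 over all alternatives). Mat1a, the form of adult liver, reached 42.7, 29.6 and 7.49 CPM in the Trim-away libraries and had no count in the 4 buffer libraries or the non-manipulated library. Its mean was at least 734-fold higher in Trim-away embryos than 3 counts over the whole buffer group would give (0.0362 CPM), and it rose by the test (adjusted p = 0.0160 from edgeR). That call was lost without Trim-away replicate 1 or 2, with an adjusted p of up to 0.0581 (1.72e-11 to 0.168 over all alternatives). Mat2b, the regulatory subunit of Mat2a, overlapped between the groups, at 2306, 797 and 1012 CPM in the Trim-away libraries, against 847, 747, 738 and 840.2 CPM in the buffer libraries.

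**Figure D4:**
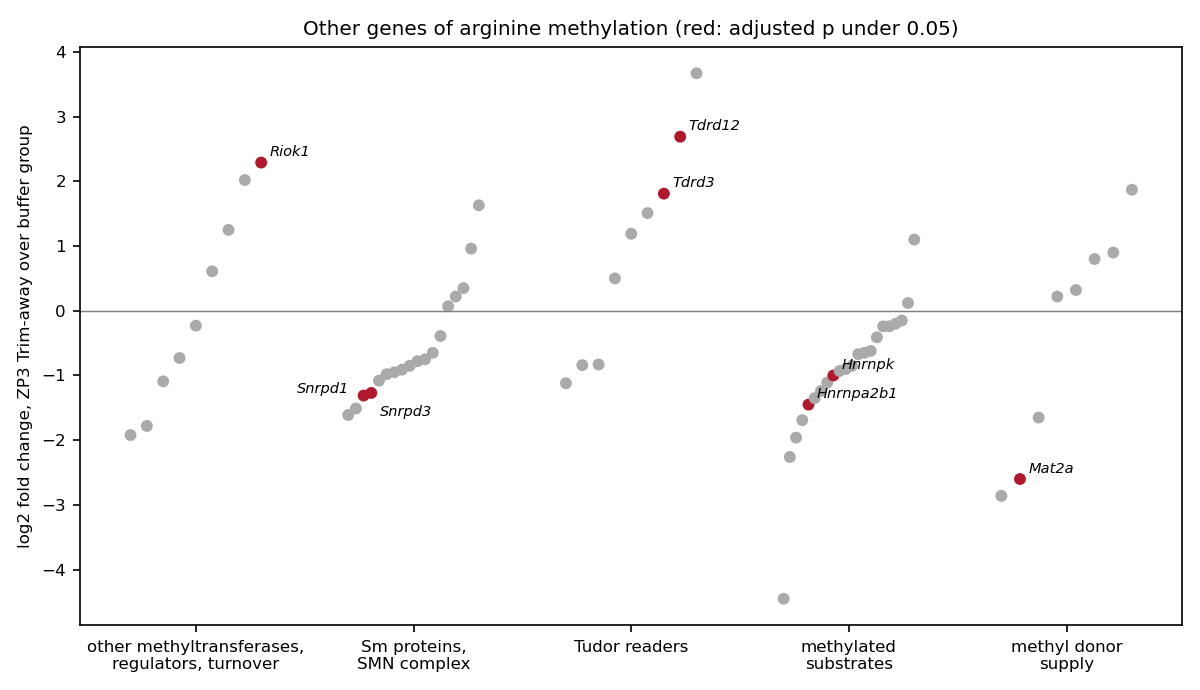
Log2 fold change of ZP3 Trim-away over the buffer group for each tested gene of 5 lists of arginine methylation, in order of its value within the list; red points passed an adjusted p under 0.05, and Mat1a, with no count in the buffer group, is left out. Riok1 (2.29), Tdrd3 (1.81) and Tdrd12 (2.69) lie above 0, and Snrpd1 (-1.31), Snrpd3 (-1.27), Hnrnpa2b1 (-1.45), Hnrnpk (-1.0) and Mat2a (-2.60) below it.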

How the data were processed

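RNA-seq counts of 8 libraries of pooled mouse embryos were used as deposited. The submitters' processing notes name FastQC 0.11.9, Trimmomatic, HISAT2, SAMtools and the build GRCm38, and per the study's methods the authors made the counts per Ensembl gene with htseq-count, whose strand setting was not given in the sources used here; no normalization had been applied to these counts. The table also holds the authors' RPKM and fold change columns, which were not used.

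The 3 Trim-away libraries and 4 buffer libraries were compared with edgeR 4.0.16 (R 4.3.3) by the quasi-likelihood test with TMM factors, the filterByExpr filter and Benjamini-Hochberg adjustment over 13641 genes, with no replicate block. A gene was called at an adjusted p under 0.05. The study itself used a t-test on RPKM; the counts were used here with a test made for counts. The common biological coefficient of variation was 1.16. Whether the replicates came from separate collections is not given, so p-values measure the spread between these libraries. CPM was scaled by TMM over the 8 libraries. Levels between genes were divided by the summed exon bases of GENCODE M21. Where a group held no count of a gene, its level was set at 3 counts over the group, which covers counting error only. Depth ran from 13228428 to 22427747 counts.

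Named were the 9 members, the called genes of each list (at most the 6 with the smallest p), and Trim21 and Zp3. The 3 closest profiles of the 3 highest members, taken from genes averaging 10 CPM or more, were also named. Coprs, Btg1, Btg2, Prmt8, Prmt9, Smn1, Snrpb, Snrpn, Ncl, Mat2b, the non-overlapping Sm genes and the marker genes were named after their values were seen. Zp3 reached 27.6, 54.9 and 56.9 CPM in the Trim-away libraries, against 106, 143, 121 and 105 CPM in the buffer libraries. Its transcript does not check the labels, since the treatment targets the protein. The members and the lists were chosen with earlier results of these data known. Alternatives were DESeq2 1.42.0, limma 3.58.1 (voom, and log2 of RPKM recomputed with a pseudocount of 0.1 or 1), other scaling, no filter, a fold above 2, a replicate block and leaving out libraries. Only the main edgeR fit was run on simulated counts, and not the alternatives, the summaries or the promoter search. Figures were drawn with matplotlib 3.10.9 in Python 3.11.15. Promoter windows are those of RefSeq on GRCm38.p6, where 8 of the 9 members matched by symbol.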

Additional observations from a re-analysis of the deposited data

Results flagged for a closer look

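In 17 groups of 4 buffer libraries, 1 for each of the 9 members and of the called list genes with counts there, 2 had a library far from the other 3 by Dixon's criterion, which chance alone gives in about 1 of 20 groups. Carm1 reached 3.17 CPM in buffer replicate 3, with the gap to the nearest other library taking up 0.970 of the range. Hnrnpk reached 529 CPM in buffer replicate 3, below the other 3 buffer libraries, with the gap taking up 0.869 of the range.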

How the results depend on the processing

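Over all genes, the main test called 407 higher and 534 lower. DESeq2 called 1001 higher and 1361 lower, limma-voom 723 higher, limma on log2 RPKM 927 lower with a pseudocount of 0.1 and 995 lower with 1, and the fit with Trim-away replicate 1 as the only Trim-away library 935 lower. Among the list genes, 4 were called higher and 5 lower. DESeq2 called 7 higher and 14 lower, limma on log2 RPKM 13 lower with either pseudocount, and the fit with Trim-away replicate 1 alone 9 lower. Leaving out 1 library gave 170 to 261 higher and 236 to 472 lower over all genes, 0 to 3 higher and 1 to 5 lower among list genes, and 0 to 0 higher and 1 to 2 lower among the members. The cause of these differences was not tested, beyond the fewer libraries fitted. Without Trim-away replicate 1, 0 list genes were called higher and 5 lower. The log2 fold change was then -1.34 for Snrpd3, -1.42 for Snrpd1, 1.5 for Tdrd3 and -1.38 for Hnrnpa2b1. It was -0.99 for Hnrnpk, -2.23 for Mat2a and 11.45 for Mat1a. With the replicate number as a block in edgeR, 0 genes, 0 members and 0 list genes were called in either direction, with 2050 genes at an unadjusted p under 0.05. The numbers are no known pairing: deviations of same-numbered libraries correlated at -0.061, 0.007 and -0.001. Of 17 alternatives, Wdr77 was called lower in 16, all but the block, and Clns1a in 12. Prmt1 was called in 3: DESeq2, limma-voom and Trim-away replicate 1 alone. As the members were chosen on this comparison, these calls are no support. Of 136 values of tested members under the alternatives, 6 moved by more than the spread, and no call turned to the other direction. Prmt2, Prmt3 and Prmt7, which were never called, changed sign under some (the block gave -0.15, -0.44 and 0.30, where the main values were 0.14, 0.59 and -0.39). This count for the members is on size and leaves out the lost calls of Wdr77 and Clns1a. Of 153 values for the called list genes 50 lost significance, a different criterion, so the 2 counts cannot be compared. The order of levels between genes depends on the length used: 12 of 36 ranks changed with other lengths. Carm1 did not pass the filter on low counts and was not tested.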
